A study of Gallus gallus with 4 samples.

Results

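The transporters described here were 49 array probes for 48 chicken genes, each named by a GenBank accession that the study's list of differentially expressed genes gives the type transporter. That type covers 54 accessions, of which 5 were left out of the description (among them SLC25A4, SLC2A10 and ABCB1), and the arrays held 42034 gene probes in all. An accession is on that list because it passed the fold and p limits of the study's own test on these same arrays. The same arrays therefore chose the genes, although on the deposited ratios 3 of the 49 (KDELR2, STX7 and SLC30A7) missed the fold limit. The ratios below are given as a description. The counts of genes past a limit apply a p threshold again to the arrays that chose them and are no independent test.

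RNA of immortal DF-1 cells was compared with RNA of primary chicken embryo fibroblasts (CEF) on 4 two-color Agilent oligonucleotide arrays, with both cell types on each array. Primary CEF were an early-passage culture from trypsin-dissociated whole embryos of specific-pathogen-free chickens, and such a culture can hold several cell types. DF-1 is a single fibroblast line that became immortal spontaneously, came from embryos of another chicken line (Line 0) and was used at late passage, while both cell types were grown in the same medium with fetal bovine serum and neither received a treatment. The labels call the arrays 4 biological replicates whereas the design text names 1 sample of each cell type, so the SD over arrays may be technical. CEF RNA carried Cy3 and DF-1 RNA carried Cy5 on every array, so dye and cell type cannot be told apart for a single probe.

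Transporters move solutes, lipids and proteins across or between membranes. Solute carriers and ABC transporters pass small molecules through a membrane, pumps and channels set ion and water balance, and coat, adaptor and SNARE proteins carry membrane proteins between the endoplasmic reticulum (ER), the Golgi and endosomes. Fibroblasts rely on the last of these routes to secrete matrix proteins, and growing cells rely on carriers for lactate, amino acids and vitamins.

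Values are log2 ratios of DF-1 over CEF, so that 1 is 2 fold higher in DF-1 and -1 is 2 fold lower, and errors are SD over the 4 arrays (n = 4). The word called is used of a probe with a mean past 1 or -1 whose unadjusted p in limma's moderated test was under 0.05. This is the rule that the methods of the study give. A ratio carries no level, so genes are compared here by their ratios alone. In bulk RNA, fewer cells of a type and less RNA per cell cannot be told apart.

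Of the 49 transporter probes, 19 were called higher and 27 lower in DF-1 cells, beside 6.12% of all gene probes called higher and 6.06% called lower. The list was drawn from genes that the study's own test called, so nothing is read from that difference. The same shares and the same limit apply to the counts by family that follow. The median of the 49 was -1.04, against 0.22 for all gene probes. Each of the 49 had the same sign on all 4 arrays, which the selection on these arrays made likely. Among the other 853 probes of the study's list, 385 were higher and 373 lower, with a median of -0.88, and with the array medians set to 0, 341 were higher and 462 lower. The lower transporters reached further from 0, with 12 means under -2 and 9 under -3, than the higher ones, with 4 means over 2 and 1 over 3. This lean was not particular to them. At 3 fold, 1470 of all gene probes were called lower and 878 higher, and of the transporters 16 and 8. With the array medians set to 0, SLC37A2 (-2.11) and HEPH (-2.01) also lay under -2. UCP3 (1.95) and FABP7 (1.83) then lay under 2, and VPS13B (2.86) under 3.

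**Figure D1:**
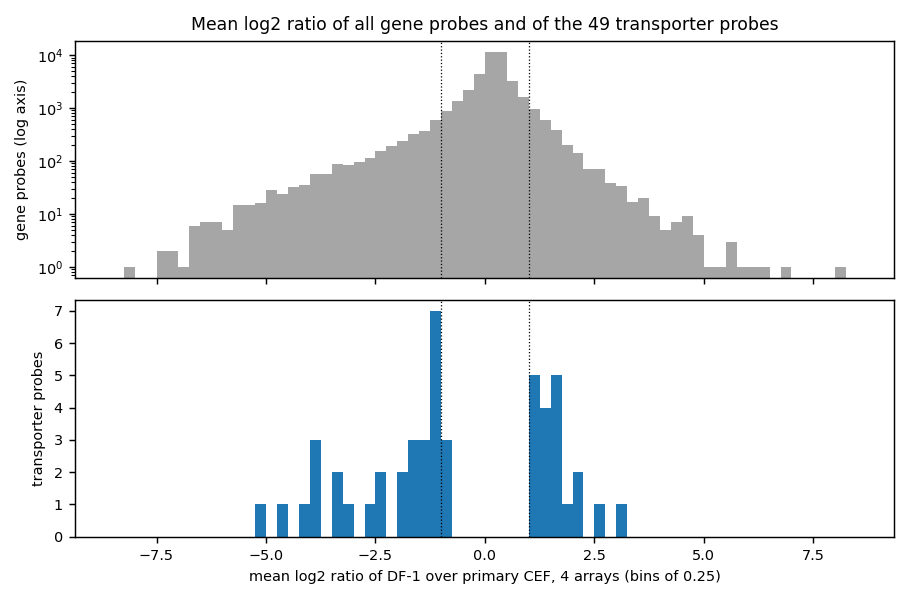
Number of probes (vertical axes, upper one logarithmic) by mean log2 ratio of DF-1 over CEF over 4 arrays (horizontal axis, bins of 0.25), for all 42034 gene probes above and the 49 transporter probes below; dotted lines mark 2 fold. The transporter means lie on both sides of an empty middle that the selection leaves, and 9 of them lie under -3.

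The arrays differed in overall level, and this touched the transporters nearest the 2 fold limit. The median of all gene probes was -0.04, 0.20, 0.21 and 0.47 on arrays 1 to 4. That of the negative control spots was 0.02, 0.17, 0.38 and 0.53. After the array medians had been set to 0, every mean was lower by 0.21, 17 transporters were higher and 30 lower. LRRCC1 (0.93) and NUP160 (0.99) were then under the limit, while KDELR2 (-1.17), STX7 (-1.17) and SLC30A7 (-1.03) were past it. As deposited, these last 3 had means of -0.96, -0.96 and -0.82 and were the probes just outside the limit, and SYNPR (-1.02), SEC24D (-1.02) and SLC37A3 (-1.04) lay just inside it. The lowest called means on the higher side were 1.14 for LRRCC1 and 1.20 for NUP160.

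**Figure D2:**
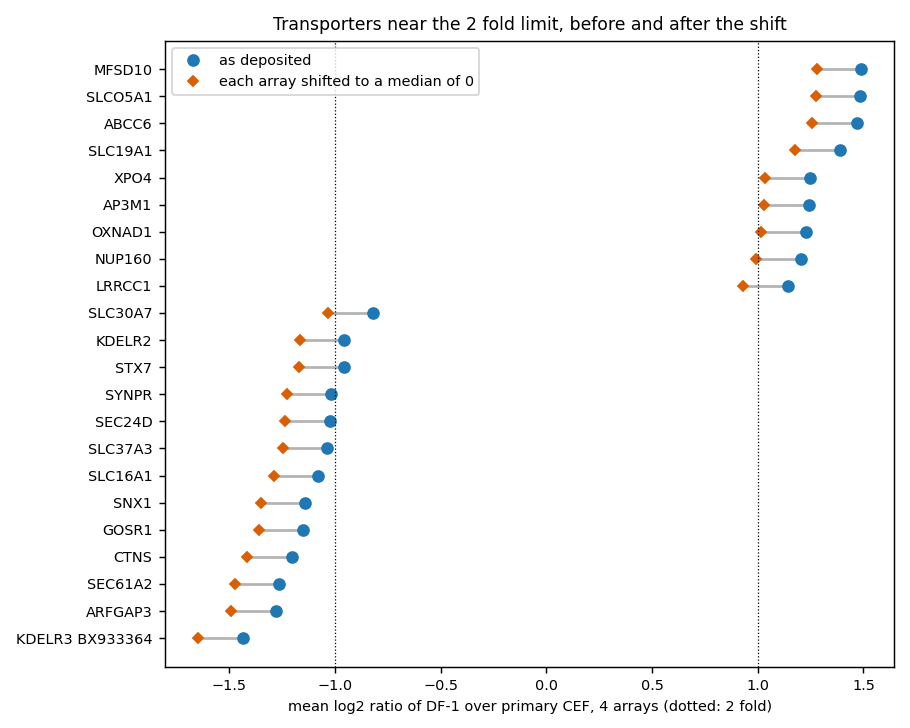
Mean log2 ratio of DF-1 over CEF over 4 arrays (horizontal axis) for each transporter with a mean between -1.5 and 1.5, as deposited (circles) and with the array medians set to 0 (diamonds); dotted lines mark 2 fold. LRRCC1 and NUP160 move under the upper limit, and KDELR2, STX7 and SLC30A7 move past the lower one.

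Over all gene probes the ratios of 2 arrays correlated with r between 0.813 and 0.929, and over the transporters with r between 0.959 and 0.991. The arrays most alike were 1 with 3 (0.929 over all gene probes, 0.991 over the transporters) and 2 with 4 (0.893 and 0.990), against at most 0.861 and 0.972 for the other pairs. The labels do not say what these arrays shared, and the SD and p-values given here treat the 4 arrays as independent. These are correlations across probes, which share labels, dyes and, for the transporters, the selection for large ratios. The SD over arrays ran from 0.05 to 0.94, with a median of 0.27, and exceeded 0.5 for 8 transporters.

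Probe sequences could be read for 26 of the 49 probes. The probes of FABP5 and SNX1 are shown because both genes are compared with a relative in the paragraphs that follow, and the probe is what identifies a gene within its family. They have 60 bases each and are written 5′ to 3′. The FABP5 probe has no stop codon in forward frame 3, and that of SNX1 has none in frames 2 and 3.
FABP5: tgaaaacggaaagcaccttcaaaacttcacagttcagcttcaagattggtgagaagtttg
SNX1: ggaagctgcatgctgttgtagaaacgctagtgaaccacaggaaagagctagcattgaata

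Among the 3 lipid carriers and receptors, 2 were far lower in DF-1 cells and 1 was higher. FABP5 (BX936126), a fatty acid-binding protein known in mammals from skin, had log2 ratios of -3.60, -5.06, -3.26 and -4.58 on arrays 1 to 4 (-4.12 ± 0.84), or 17.4 fold lower. FABP7 (X65459), the fatty acid-binding protein of brain and radial glia, had 2.14, 2.08, 1.74 and 2.21 (2.04 ± 0.21). Both genes kept their side on all 4 arrays, and FABP5 was lowest on arrays 2 and 4. The difference FABP7 minus FABP5 was 5.74, 7.14, 4.996 and 6.79 (6.17 ± 0.98). The VLDL receptor VLDLR (X80207), which takes up lipoproteins and in hens brings yolk precursors into the oocyte, had -4.11, -3.79, -4.12 and -3.71 (-3.93 ± 0.21). Its 4 values lay close together.

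All 4 carriers grouped under monocarboxylates and sugar phosphates were lower. SLC16A3 (AF204396) is MCT4, known in mammals for lactate export from glycolytic cells, and had -1.67, -1.73, -1.47 and -2.10 (-1.74 ± 0.26). SLC16A1 (AJ721138), the lactate and pyruvate carrier MCT1, had -1.15, -1.12, -0.81 and -1.24 (-1.08 ± 0.19). SLC16A3 was below SLC16A1 on each array, by -0.66 ± 0.14 on average. SLC37A2 (BX932962) and SLC37A3 (AJ851620) belong to the SLC37 family. They are grouped with sugar phosphate carriers by family and not by a measured cargo. SLC37A2 had -2.11, -1.94, -2.07 and -1.49 (-1.90 ± 0.29), and SLC37A3 had -0.94, -1.23, -0.83 and -1.15 (-1.04 ± 0.18). Array 4 held the highest value of SLC37A2 and arrays 1 and 3 the highest of SLC37A3, and SLC37A2 was the lower of the pair on all 4 arrays (-0.86 ± 0.42). A relative outside the group, SLC16A9, which the study typed otherwise, had 2.80 ± 0.18, opposite in direction to SLC16A1 and SLC16A3.

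Of the 8 carriers of amino acids, vitamins and organic anions, including those of mitochondria, 3 were lower and 5 higher. SLC6A6 (AJ851469), the taurine transporter, had -4.44, -3.99, -3.86 and -3.69 (-3.99 ± 0.32), or 15.9 fold lower. SLC25A15 (AJ720668), which exchanges ornithine across the inner mitochondrial membrane, had -3.34, -3.25, -3.30 and -2.70 (-3.15 ± 0.30). As deposited, array 4 was the highest for both genes. With the array medians set to 0 it was still so for SLC25A15, but array 3 was the highest for SLC6A6. CTNS, which exports cystine from lysosomes, had -1.20 ± 0.15. On the higher side, the probe listed as UCP3 (AF287144), a mitochondrial uncoupling protein, had 1.83, 2.23, 2.01 and 2.58 (2.16 ± 0.32). The other 4 lay between 1.39 and 1.49. They were SLC19A1, the reduced folate carrier (1.39 ± 0.15), ABCC6, an ABC transporter (1.47 ± 0.47), SLCO5A1, of the organic anion transporter family (1.49 ± 0.25), and MFSD10, of the major facilitator family (1.49 ± 0.09). The carrier families (SLC, SLCO, ABC, MFSD and UCP) together held 14 genes, of which 6 were called higher and 7 lower, with 1 not past the limit.

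The 3 inorganic ion carriers went different ways. SLC24A2 (AF177985), which trades sodium for calcium and potassium in neurons and cone photoreceptors, had -4.20, -3.24, -4.39 and -3.26 (-3.77 ± 0.61), with arrays 1 and 3 the lowest. SLC12A4, a potassium and chloride cotransporter, had 1.04, 2.31, 1.18 and 2.26 (1.70 ± 0.68), and its arrays 1 and 3 were again the lowest. SLC30A7, which brings zinc into the Golgi, had -1.28, -0.97, -0.22 and -0.81 (-0.82 ± 0.45) and was not called.

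Among the 7 pumps, channels and metal oxidases, 4 were higher and 3 lower. The proton pump subunits ATP6V1G3 and ATP6V0A1 stood on opposite sides. ATP6V1G3 (BX932779), a G subunit of the vacuolar proton pump known in mammals from kidney, had -5.10, -5.26, -5.09 and -5.54 (-5.25 ± 0.21), or 38.0 fold lower, the lowest mean of the 49 probes. ATP6V0A1 (CR391341), a subunit of the membrane sector of the same pump, had 1.48, 1.45, 1.33 and 1.80 (1.52 ± 0.20). ATP6V0A1 and ATP6V1G3 differed by 6.76 ± 0.40. Both had been selected past 2 fold, so some gap between genes on opposite sides was fixed in advance, though not its size. The same holds for FABP7 with FABP5 and for AP3M1 with AP1S3. No other subunit of the pump is described here. AQP1 (BX933585), a water channel, had 2.49, 3.28, 2.02 and 2.56 (2.59 ± 0.52), or 6.02 fold higher, with array 2 the highest. ATP1B1, a regulatory subunit of the sodium and potassium pump, had 1.87 ± 0.20, and TRPC4AP, which binds the TRPC4 channel, had 1.52 ± 0.12. HEPH, a ferroxidase that in mammals helps iron leave the gut epithelium, had -1.80 ± 0.27, and GJC1, a gap junction connexin, had -1.55 ± 0.29. The connexin GJA4, which the study did not list, had 0.13 ± 0.12 (adjusted p = 0.465, limma with Benjamini-Hochberg adjustment over all gene probes).

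**Figure D3:**
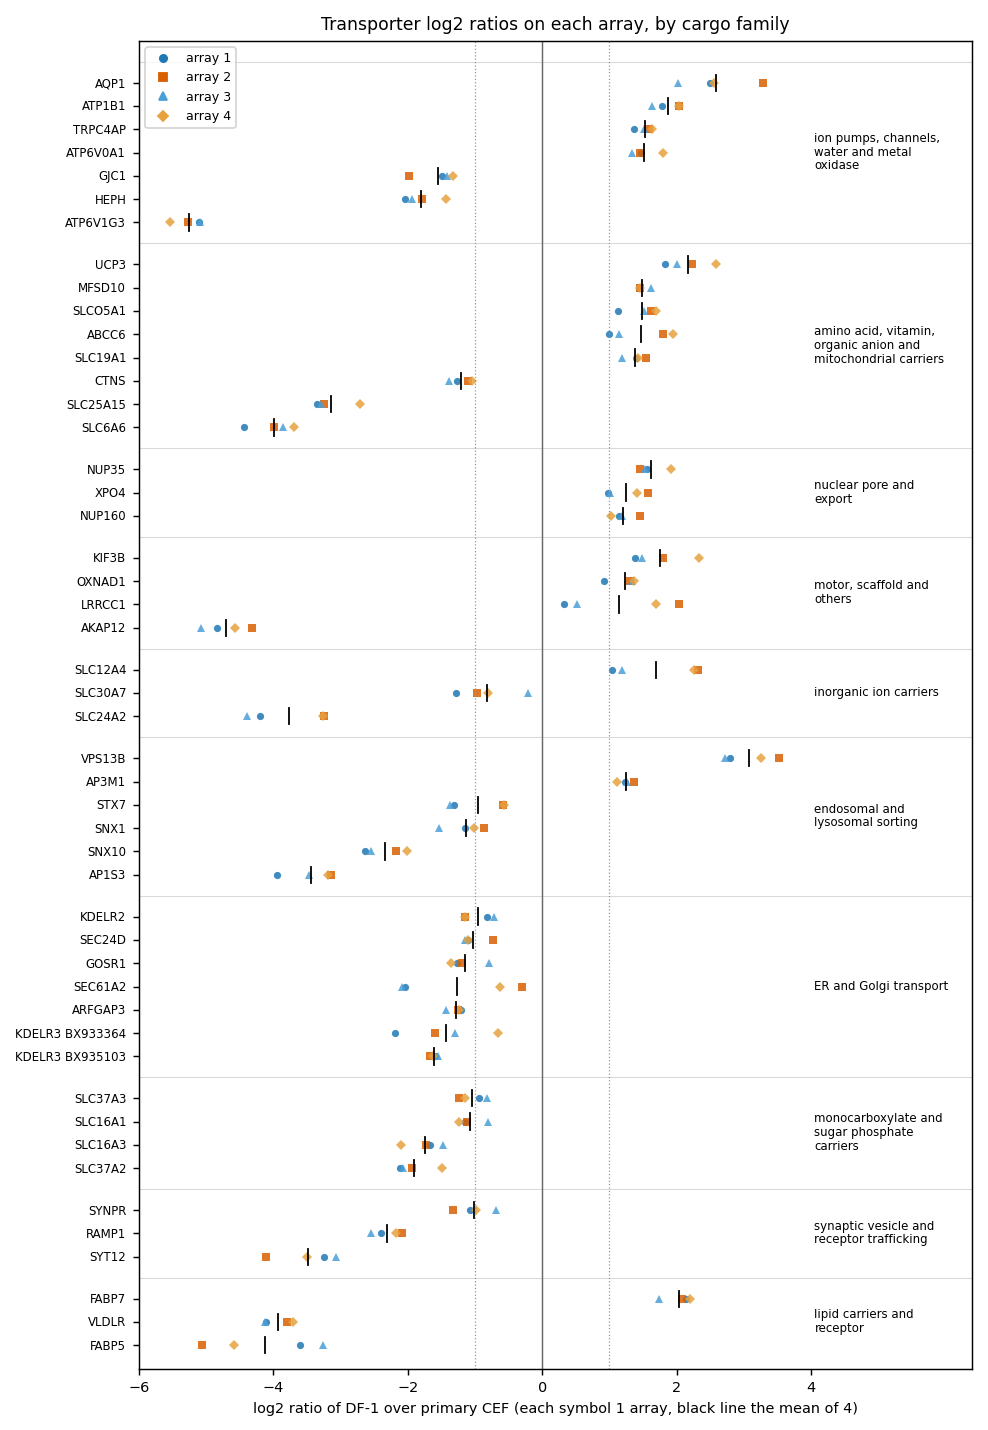
Log2 ratio of DF-1 over CEF (horizontal axis) for each transporter probe described by name (rows, grouped by cargo family), with 1 symbol per array and a black line at the mean of 4; dotted lines mark 2 fold. ATP6V1G3, AKAP12 and FABP5 hold the lowest means and VPS13B the highest (3.07), and SEC61A2, LRRCC1 and FABP5 show the widest spread between arrays.

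Of the 7 ER and Golgi transport probes, 6 were called lower, and that of KDELR2, at -0.96, was not past the limit. The KDEL receptors return escaped ER proteins from the Golgi. KDELR3 was measured by 2 probes: BX935103 had -1.59, -1.67, -1.54 and -1.63 (-1.61 ± 0.05), and BX933364 had -2.19, -1.60, -1.30 and -0.66 (-1.44 ± 0.63). Their means differed by -0.17 ± 0.64, within the spread. As deposited, the first was nearly constant over arrays while the second ranged widely. With the array medians set to 0, the first had -1.55, -1.87, -1.76 and -2.10. The second then had -2.14, -1.80, -1.51 and -1.13. KDELR2 (AJ719955) had -0.82, -1.15, -0.71 and -1.14 (-0.96 ± 0.22), and the first KDELR3 probe was below it on each array (-0.65 ± 0.17). SEC61A2, a pore subunit of the translocon through which new proteins enter the ER, had -2.05, -0.30, -2.08 and -0.62 (-1.26 ± 0.94). Arrays 1 and 3 were far below arrays 2 and 4 for SEC61A2, and without array 3 it was no longer called. SEC24D, which picks cargo for COPII vesicles leaving the ER, had -1.02 ± 0.19 and was not called without array 1, 3 or 4. GOSR1, a Golgi SNARE, had -1.15 ± 0.25, and ARFGAP3, which switches off the coat regulator ARF1, had -1.28 ± 0.10. The related ARFGAP2, not on the study's list, had 0.17, 0.83, 0.22 and 0.96 in array order (0.54 ± 0.41) and was under 2 fold. Its adjusted p was 0.0447 (limma with Benjamini-Hochberg adjustment), from a test against 0 on the ratios as deposited. That test did not allow for the differing array medians, and with these set to 0 the mean of ARFGAP2 was 0.33. SEC31A, of the COPII coat (-0.84 ± 0.11), and TMED8 (-0.87 ± 0.16), which the study typed otherwise, were not past the limit as deposited. With the array medians set to 0, SEC31A (-1.05) and TMED8 (-1.08) were called lower.

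Of the 6 endosomal and lysosomal sorting genes, 3 were lower and 2 higher. AP1S3 (BX931554), a small (sigma 3) subunit of the AP-1 clathrin adaptor, had -3.95, -3.15, -3.46 and -3.19 (-3.44 ± 0.37). AP3M1, a subunit of the AP-3 adaptor that sorts cargo to lysosomes, had 1.23, 1.36, 1.26 and 1.12 (1.24 ± 0.10). These subunits of different adaptors differed by 4.68 ± 0.37 and lay on opposite sides on each array. The sorting nexins, which bind endosomal membranes, were both lower: SNX10 (AJ720825) had -2.64, -2.17, -2.55 and -2.01 (-2.34 ± 0.30) and SNX1 (BX935594) had -1.15, -0.86, -1.54 and -1.01 (-1.14 ± 0.29). SNX1 was above SNX10 on every array, by 1.20 ± 0.24. VPS13B (CR407099), a lipid transfer protein of the Golgi and endosomes, had 2.80, 3.52, 2.72 and 3.25 (3.07 ± 0.38), or 8.40 fold higher, the highest mean of the 49. STX7, a late endosome SNARE, had -0.96 ± 0.45, and SNX30, a sorting nexin that the study typed otherwise, had -0.89 ± 0.28. With the array medians set to 0, STX7 (-1.17) and SNX30 (-1.10) were called lower.

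**Figure D4:**
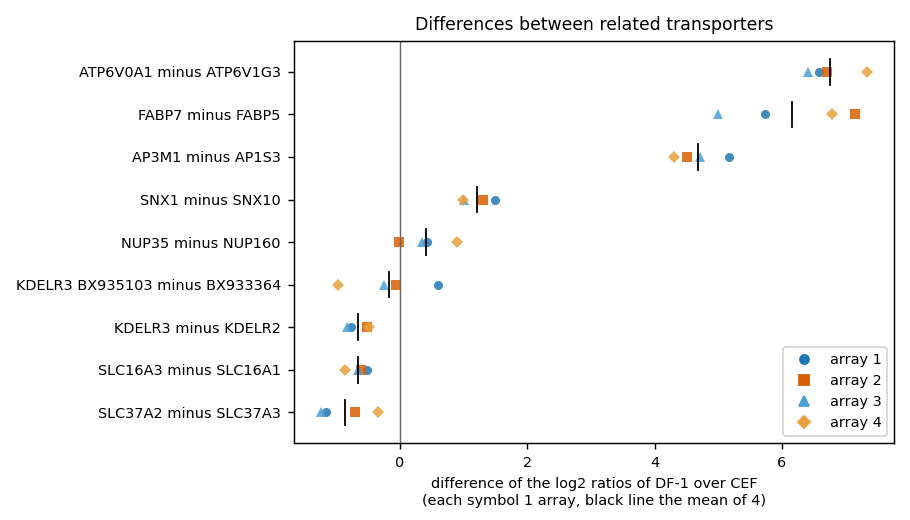
Difference of the log2 ratios of DF-1 over CEF (horizontal axis) between related transporters (1 family, 1 complex, or adaptors of the same kind), with 1 symbol per array and a black line at the mean of 4. The proton pump subunits ATP6V0A1 and ATP6V1G3 (6.76), the fatty acid-binding proteins (6.17) and the adaptor subunits (4.68) differ most. The difference between the 2 KDELR3 probes lies on both sides of 0.

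The genes of synaptic vesicles and receptor trafficking that are described here, SYT12, RAMP1 and SYNPR, were all lower. SYT12 (BX936066), a synaptotagmin, had -3.25, -4.11, -3.06 and -3.50 (-3.48 ± 0.46), lowest on array 2. RAMP1 (BX936098), which brings the CGRP receptor to the cell surface, had -2.40, -2.09, -2.55 and -2.17 (-2.30 ± 0.21), and SYNPR, the vesicle protein synaptoporin, had -1.02 ± 0.27 and was not called without array 1 or 2. Of 8 neural and glial marker probes (8 of 15 listed genes), 6 were called lower and 2 higher, beside 6.06% and 6.12% of all gene probes. Probes got names almost only from the study's list, so that these were called was nearly fixed in advance. The mean over these 8 probes lay between -1.81 and -1.33 on the 4 arrays, and its size carries the same limit. The part of the markers in these ratios was not tested.

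All 3 genes of nuclear transport were called higher as deposited, and NUP160 was under the limit with the array medians set to 0. NUP35 (CR523523), of the inner ring of the nuclear pore, had 1.56, 1.45, 1.53 and 1.92 (1.62 ± 0.21), and NUP160 (AJ719302), of its outer ring, had 1.14, 1.46, 1.19 and 1.02 (1.20 ± 0.19). NUP35 minus NUP160 was 0.41 ± 0.37, with array 2 at -0.01, so the pair did not differ on every array. XPO4, an exportin, had 1.25 ± 0.30, and the pore protein NUP93, which the study typed otherwise, had 1.68 ± 0.07. The study's list places 5 transporters in the nucleus: NUP35, NUP160 and XPO4, with VPS13B and LRRCC1, which are described here under other families. All 5 were called higher. Of 23 in the cytoplasm 7 were higher and 14 lower, and of 17 at the plasma membrane 5 were higher and 11 lower. Over all gene probes, 6.12% were called higher and 6.06% lower. With the array medians set to 0, 3 of the 5 were called higher. Lower were then 16 of the 23 in the cytoplasm and 12 of the 17 at the plasma membrane. Among the list's other probes, 125 of 214 of the nucleus were higher and 71 lower. Of 292 of the cytoplasm 137 were higher and 122 lower, and of 116 of the plasma membrane 40 were higher and 54 lower. With the array medians set to 0, 110 of the nucleus were higher and 88 lower. For the cytoplasm these counts were then 116 and 151, and for the plasma membrane 36 and 76. All 11 proliferation marker probes were higher too, beside 6.12% of all gene probes, with a list mean between 1.48 and 1.84 over the arrays. Probes got names almost only from the study's list, so that these were called was nearly fixed in advance. The size of the proliferation mean carries the same limit, and the part of these markers in the ratios was not tested.

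The remaining 4 genes were a motor, a scaffold and others. AKAP12 (BX932296), which anchors protein kinase A near the membrane, had -4.84, -4.31, -5.08 and -4.57 (-4.70 ± 0.33), or 26.0 fold lower. KIF3B, a kinesin that carries cargo along microtubules and into cilia, had 1.75 ± 0.43. OXNAD1, which has an oxidoreductase domain, had 1.23 ± 0.21. LRRCC1, a centrosomal protein, had 0.32, 2.04, 0.52 and 1.69 (1.14 ± 0.85). Its arrays 1 and 3 lay well under 2 fold and it was not called without array 2 or 4.

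Transport genes outside the group, found by symbol, were 25, of which 13 were called higher, 6 lower and 6 neither. The shares over all gene probes were 6.12% higher and 6.06% lower. Of the 25, 23 were on the study's list and hence chosen on these arrays, so nothing is read from these counts. With the array medians set to 0, 11 of the 25 were higher, 10 lower and 4 neither. The lowest was SLC25A4, the mitochondrial exchanger of ADP and ATP, at -7.48 ± 0.14, below each of the 49. PMP2, a fatty acid-binding protein of myelin, had -4.85 ± 0.56, VDAC1, the mitochondrial porin, had -4.36 ± 0.27, and SLC2A10, a sugar carrier, had -3.97 ± 0.09. Of the kinesins beside KIF3B, the mitotic KIF18B (1.91 ± 0.31), KIF23 (1.44 ± 0.34) and KIF11 (1.40 ± 0.49) were called higher. KIF26A, at -0.90 ± 0.40, was not called as deposited but was called lower with the array medians set to 0 (-1.11). SRP9, of the signal recognition particle, had -1.87 ± 0.14, and ABCB1, a drug efflux pump, had 1.73 ± 0.45.

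Markers of the labelled cell type were lower in DF-1 cells, with 13 of 13 fibroblast probes (9 of 16 listed genes) called lower. The mean over these 13 probes lay between -2.86 and -2.41 over the arrays. Ratios cannot show whether those genes were present. Cartilage and bone markers were lower in 6 of 6 probes (6 of 9 listed genes), endothelial in 3 of 4 (4 of 7), blood and macrophage in 3 of 4 (4 of 8) and muscle in 4 of 5 (5 of 12). Both epithelial probes (2 of 8 listed genes) were higher. Over all gene probes, 6.12% were called higher and 6.06% lower. Nearly all of these markers were named through the study's list, so that they were called was nearly fixed in advance. Nothing is read from the counts of calls or from the fibroblast mean, and the part of the markers in the transporter ratios was not tested.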

How the data were processed

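RNA of primary CEF (Cy3) and DF-1 cells (Cy5) was hybridized together on 4 arrays, with no dye swap. The authors corrected the intensities for background and applied loess normalization array by array. The deposited values were 1 linear ratio per spot and array, and a second deposited table held the same values as log2, equal to within 5.0e-05. The study's printed log ratios are not all equal to the means given here. For SLC19A1, ABCC6 and SLC25A4 they lie nearer the means with the array medians set to 0 (1.18, 1.26 and -7.69). For AQP1 and VPS13B they lie nearer the deposited means (2.59 and 3.07). Calls here can therefore differ from the study's. The direction, DF-1 over CEF, was taken from the dyes and from the study's list. A deposited mean and SD of the linear ratios, headed as fold change, were not used, and 0 columns belonged to other samples. Signal over background is unknown, so no filter on dim probes was applied, and the number of arrays limits the precision.

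Of 45220 spots, 42034 were gene probes, with 0 missing values. The mean of the 4 log2 ratios was tested against 0, 2-sided, with lmFit and eBayes of limma 3.58.1 in R 4.3.3, over all gene probes and without centering. Probes were named by accession from the study's list (902) or RefSeq (49). No genome was used, so positions are not given. Summaries used Python 3.11.15 (matplotlib 3.10.9, pandas 2.3.3, numpy 2.4.6). On simulated ratios for 42034 probes of this comparison, 50 of 50 probes were called at each log2 ratio of 1.5, 2, 3 and 4, as were 49 of 41834 unchanged ones. The simulated arrays were independent normal draws of equal level, with the SDs of the real probes shuffled. They held no level differences, array pairs or dye effect, so these counts do not give the error rate on the real arrays.

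The transporters, cargo families, marker lists and other lists were chosen with earlier results of these data known. Each transporter is named except 1, which is counted but not reported here; values on all 4 arrays are given where the mean is over 2 or under -2 or a protein family is shared, and for SLC12A4, SLC30A7, SEC61A2, AP3M1 and LRRCC1, which were added after their values were seen. Of other transport genes, the 8 with the largest mean and those sharing a family with a transporter are named, with SEC31A and TMED8 added after their values were seen. ARFGAP2 and GJA4 have p-values since the study did not select them. The alternatives were the adjusted p, shifting or scaling the arrays, robust variances, a test against 2 fold, no fold limit, 3 fold, the log2 table, genes in place of accessions, and leaving out each array.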

Additional observations from a re-analysis of the deposited data

Results flagged for a closer look

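For 4 of the 49 transporters (8.16%), 1 array stood apart from the other 3 by a gap that took up most of the range of the 4 log2 ratios. Chance gives such a gap in about 5% of groups when the arrays are independent and of equal level. The gaps were taken on the ratios as deposited, whose array medians differ. The gap was 0.893 of the range for MFSD10, where array 3 was highest, and 0.878 for SEC24D, where array 2 was highest. It was 0.867 for OXNAD1, where array 1 was lowest, and 0.854 for SLC25A15, where array 4 was highest. Each of the 4 genes kept its sign on all arrays. With the array medians set to 0, MFSD10 had 1.48, 1.25, 1.40 and 0.98, and OXNAD1 had 0.96, 1.10, 1.12 and 0.89. Array 3 was then not the highest for MFSD10, nor array 1 the lowest for OXNAD1. SEC24D then had -1.06, -0.94, -1.36 and -1.57, and SLC25A15 had -3.30, -3.45, -3.51 and -3.17. The flags describe the deposited ratios alone.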

How the results depend on the processing

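Of the 49 transporters, 19 higher and 27 lower calls were unchanged with the adjusted p, robust variances and the log2 table. Against 2 fold, limma's treat called 10 higher and 16 lower, and at 3 fold 8 were higher and 16 lower. Over all gene probes, treat gave 879 higher and 1406 lower, 3 fold gave 878 and 1470, and no fold limit with the adjusted p gave 8114 and 4657. Of other transport genes, 5 were higher with treat and 4 at 3 fold, and 10 were lower after shifting the arrays, after shifting and scaling them, and with no fold limit. Of all called gene probes 50.2% were higher as deposited and 34.9% after the shift, and of the called transporters 41.3% and 36.2%. No mean changed sign under the settings run, which the selection and the same sign on all 4 arrays had fixed in advance. Shifting lowered every mean by the same 0.21, which exceeded 1 SD for 18 of 49, so that count reflects the SDs alone. Shifting with scaling moved 13 by more than 1 SD. Leaving out 1 array gave 18 to 19 higher and 26 to 27 lower transporters, and SLC37A3 was not called without array 2. KDELR2 was called lower without array 1 or 3, STX7 without array 2 or 4 and SLC30A7 without array 3. No paired analysis was possible because there is 1 group, and each array already pairs both cell types. Dim probes could not be told from bright ones, and dye effects could not be separated from cell type.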
